A study of Mus musculus with 145 samples.

Results

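The genes described here are 9 genes of the vessel wall that govern how leukocytes are captured from the blood and how vessels are maintained: the selectins Sele and Selp, the adhesion molecules Icam1 and Vcam1, the junction genes Pecam1 and Cdh5, the growth factor receptor Kdr and the ligands Vegfa and Angpt2. They were taken as a named list, which was chosen with earlier results of these data known. All 9 were found among 55416 gene identifiers and passed the filter on low counts that left 18677 genes for testing. RNA was measured by poly(A) RNA sequencing in the dorsal skin of mice handled without irradiation (sham) or exposed once to 5, 10, 20 or 40 mJ/cm2 of ultraviolet light from 8 fluorescent tanning lamps of 100 W, of which 96.4% was UVA and 3.6% UVB. Skin was taken 0, 6, 24, 48, 72 or 96 h later. Each library came from 1 animal, and 145 of the 150 planned animals were sequenced: 25 of the 30 groups had 5 libraries and 5 groups had 4 (the 20 mJ/cm2 group of 48 h and, at 96 h, each of the 4 irradiated groups). The sources used here do not give the strain, sex or age of the mice. The comparisons asked which of these genes differed from sham animals of the same time at each dose, how the difference scaled with dose, and whether its size differed between times.

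Leukocytes leave the blood by steps that these genes divide among themselves. E-selectin (Sele) and P-selectin (Selp) let leukocytes roll on the endothelium, and Icam1 and Vcam1 then hold them through integrins. Pecam1 and VE-cadherin (Cdh5) sit at the junctions that leukocytes pass, and serve as general markers of endothelial cells. Vegfa drives vessel growth through its receptor Kdr, and Angpt2 is a ligand of the endothelial receptor Tek that loosens quiescent vessels. Inflammatory cytokines are known to switch on Sele, Icam1 and Vcam1 in endothelium through NF-kB. Not every member is confined to endothelium: Icam1 is also made by leukocytes and by stimulated keratinocytes, Vegfa by keratinocytes, and Selp and Pecam1 by platelets. In these bulk samples fewer cells of a type and less RNA per cell cannot be told apart.

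The promoters of Icam1, Sele and Selp are shown because these were the members with a log2 fold change above 1 at 40 mJ/cm2. RefSeq promoter entries (GRCm38.p6, 250 bases before to 50 after the start site) matched 5 of the 9 genes. Capitals mark every match, on either strand, to the NF-kB form GGNNNTTCC, the STAT form TTCNNNGAA and the ATF form TGACNTCA. The counts were made on another build (GRCm39), and the motif forms were chosen after the sequences had been seen.
Icam1: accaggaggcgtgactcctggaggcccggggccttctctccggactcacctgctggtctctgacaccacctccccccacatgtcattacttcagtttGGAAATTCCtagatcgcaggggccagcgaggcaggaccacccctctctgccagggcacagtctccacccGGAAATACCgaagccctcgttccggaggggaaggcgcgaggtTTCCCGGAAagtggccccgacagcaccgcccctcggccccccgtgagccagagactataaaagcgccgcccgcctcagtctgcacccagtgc
Sele: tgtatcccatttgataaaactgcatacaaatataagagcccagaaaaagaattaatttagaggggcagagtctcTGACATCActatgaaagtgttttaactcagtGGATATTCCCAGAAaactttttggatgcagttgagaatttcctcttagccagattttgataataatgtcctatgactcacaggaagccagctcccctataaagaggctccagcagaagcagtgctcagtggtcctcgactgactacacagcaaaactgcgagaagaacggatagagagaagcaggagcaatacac
Selp: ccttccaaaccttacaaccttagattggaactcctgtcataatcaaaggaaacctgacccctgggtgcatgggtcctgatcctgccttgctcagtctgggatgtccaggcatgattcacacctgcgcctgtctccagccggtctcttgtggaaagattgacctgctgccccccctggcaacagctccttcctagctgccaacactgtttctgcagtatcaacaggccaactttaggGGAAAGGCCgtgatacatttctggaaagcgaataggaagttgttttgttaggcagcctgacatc
The Icam1 window (chr9:21015690-21015989, plus strand) held the NF-kB form at -153 to -145 and again, on the minus strand, at -84 to -76 from the start site, and the STAT form at -42 to -34. The Sele window (chr1:164047984-164048283, plus strand) held the ATF form at -176 to -169 and the NF-kB form at -145 to -137, and a STAT form at -140 to -132 shares bases with that NF-kB form. The Selp window (chr1:164115014-164115313, plus strand) held the NF-kB form once, on the minus strand at -14 to -6. Of 32851 promoters of that length, 18.5% held the NF-kB form, 8.3% the STAT form and 8.83% the ATF form. A match says only that these letters occur in the window.

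In sham skin (n = 30 libraries over the 6 times) the levels per kilobase of spliced gene length ranked as follows. The junction genes and the growth factor were the highest, with 15.8 ± 3.78 CPM per kb for Cdh5, 15.5 ± 3.42 for Pecam1 and 13.8 ± 3.99 for Vegfa (mean ± SD, CPM being counts per 1000000 counts of the library). Icam1 followed at 7.93 ± 2.23 and Kdr at 5.16 ± 0.80 CPM per kb. The lowest were Angpt2 at 2.15 ± 0.46, Selp at 1.86 ± 0.55, Vcam1 at 1.69 ± 0.62 and Sele at 1.65 ± 1.03 CPM per kb. Differences between genes were not tested. The SD is the spread between libraries that all genes share, so the order among Cdh5, Pecam1 and Vegfa and among the 4 lowest genes is a description only. The selectins rested on few reads, with a median count per library of 47 for Sele and 92 for Selp, against 398 for Icam1 and 1022 for Pecam1.

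Total counts ran from 180004 to 64588924 per library with a median of 11079517, and 2 libraries held under 1000000: 10 mJ/cm2 replicate 5 at 6 h (180004) and 20 mJ/cm2 replicate 5 at 0 h (204483). All 5 member values of 0 in the series come from those 2 libraries, where a count of 0 allows up to 3 counts. Library titles end in R1_001 (71 libraries) or R1 (74 libraries); the sources used here do not say what the ending marks, and every test kept it as a covariate. Skeletal muscle genes held a large and varying share of these libraries, and dorsal mouse skin has a muscle layer beneath it. All 28 genes of a list of other endothelial markers were detected well enough to test.

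At 6 h after 40 mJ/cm2, Icam1 was the member that rose. Its level was 88.5, 80.1, 69.7, 45.5 and 85.4 CPM in the 40 mJ/cm2 skins, against 51.1, 30.2, 30.6, 25.1 and 33.6 CPM in sham skins. Of the irradiated skins 4 of 5 lay above every sham skin, and the groups overlapped through the 1 that did not. The means were 73.8 ± 17.4 and 34.1 ± 9.95 CPM (SD, n = 5 each), a log2 fold change of 1.14 ± 0.24 (SE, 95% interval 0.65 to 1.63, edgeR quasi-likelihood adjusted p = 0.00494). That made 1 of 9 members higher and 0 of 9 lower, where 2.14% of all genes tested were called higher and 2.75% lower. The rise was as large within each title ending, at 1.13 on the log2 scale among the R1_001 libraries (3 against 3) and 1.10 among the R1 libraries (2 against 2). It passed with each of the 10 libraries left out, at 1.03 to 1.33.

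Both selectins had raised values in the same skins without passing the test. Selp, the P-selectin stored in endothelial granules, had 16.0, 22.0, 16.0, 9.98 and 27.6 CPM in the 40 mJ/cm2 skins, against 6.70, 6.67, 11.5, 11.4 and 9.21 CPM in sham skins. Again 4 of 5 irradiated skins were above every sham skin, with a log2 fold change of 1.06 ± 0.33 (95% interval 0.38 to 1.74, edgeR adjusted p = 0.0639). Selp did pass with DESeq2 (adjusted p = 0.0139), and with edgeR in 1 fit of all groups (0.0442), with the muscle marker level as covariate (0.0333) and without the libraries under 1000000 counts (0.0355). Sele had 11.7, 16.5, 8.75, 7.94 and 26.7 CPM in the 40 mJ/cm2 skins, against 3.35, 3.89, 7.06, 12.1 and 8.35 CPM in sham skins. The Sele groups overlapped widely, and its log2 fold change of 1.14 ± 0.39 had an edgeR adjusted p of 0.104; without 40 mJ/cm2 replicate 4, the lowest irradiated skin, it was 1.34 and passed (0.0417), as did Selp at 1.24 (0.0221). By title ending Selp differed by 1.14 on the log2 scale among the R1_001 libraries (3 against 3) and by 0.69 among the R1 libraries (2 against 2). Sele differed by 1.37 among the R1_001 libraries and by 0.53 among the R1 libraries. Vcam1, which binds the integrin of monocytes and lymphocytes, had a log2 fold change of 0.55 ± 0.25 (95% interval 0.03 to 1.08, edgeR adjusted p = 0.255).

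Angpt2 was lower at 6 h in each of the 40 mJ/cm2 skins than in any sham skin, without passing the test. It had 6.98, 6.38, 6.05, 6.72 and 6.90 CPM in the 40 mJ/cm2 skins, against 11.4, 9.59, 10.2, 7.57 and 7.61 CPM in sham skins. The 2 groups did not overlap, yet the log2 fold change of -0.46 ± 0.19 (95% interval -0.85 to -0.06) had an edgeR adjusted p of 0.202. By title ending the log2 difference was -0.67 among the R1_001 libraries (3 against 3) and -0.15 among the R1 libraries (2 against 2). How many of all genes had groups without overlap was not counted, so the separation carries no weight of its own. Pecam1, Cdh5, Kdr and Vegfa had log2 fold changes of -0.10 ± 0.20, 0.16 ± 0.28, -0.15 ± 0.15 and 0.24 ± 0.22, with intervals that all span 0.

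Few genes of other cell types passed beside these 6 h values. Of 15 skeletal muscle genes 0 passed with edgeR or DESeq2 and 0 were at an unadjusted p under 0.05, and their summed level was 16170 to 67920 CPM in the 40 mJ/cm2 skins, against 24530 to 55810 CPM in sham skins. The irradiated skin with the least muscle RNA, replicate 4, was also the lowest in Icam1, Selp and Cdh5. Of 12 neutrophil genes Lcn2 alone rose, by 1.31 ± 0.33, and of 12 monocyte and macrophage genes the endotoxin receptor Cd14 alone rose with edgeR, by 1.54 ± 0.40, while DESeq2 called 2 higher. Of 10 keratinocyte genes Dsg3 rose, by 0.82 ± 0.21, and of 10 T cell genes 2 fell, Cd3g, which fell by 1.27 ± 0.27, and Cd247, which fell by 1.11 ± 0.27. With the muscle marker level as covariate Icam1 was at 1.10 (edgeR adjusted p = 0.000545), where 1741 genes were called in place of 914. The part of the other cell types in the Icam1 difference was not tested.

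**Figure D1:**
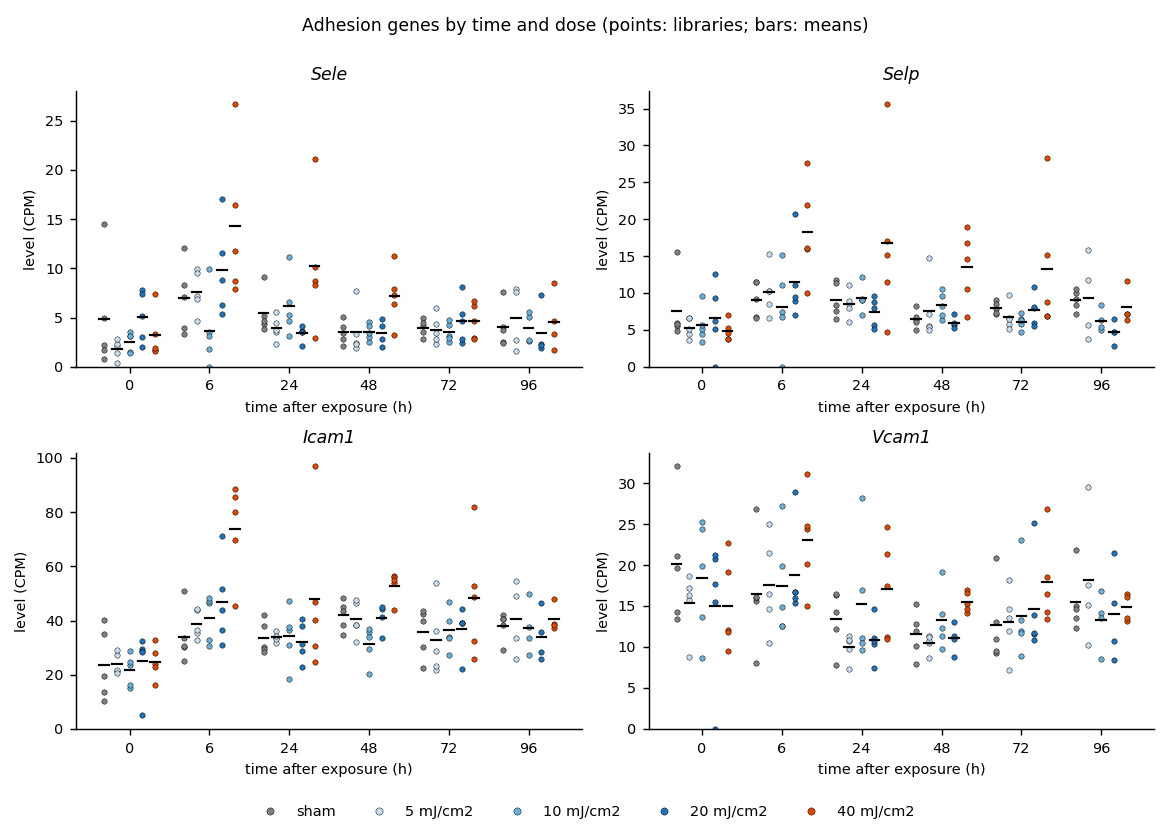
Level in CPM (vertical axis) of the selectins Sele and Selp and the adhesion molecules Icam1 and Vcam1 by time after exposure (horizontal axis, h), from sham to 40 mJ/cm2 at each time; points are libraries and bars are group means. Icam1 at 6 h averaged 73.8 CPM in the 40 mJ/cm2 skins and 34.1 CPM in sham skins, and single 40 mJ/cm2 skins stand high at 24 and 72 h.

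At 24 h no member passed the test at 40 mJ/cm2, where 1.65% of genes were called higher and 1.26% lower. 1 skin stood far above the others. Selp had 4.65, 17.0, 15.1, 11.5 and 35.6 CPM in the 40 mJ/cm2 skins, against 11.7, 8.36, 11.3, 6.45 and 7.60 CPM in sham skins. Sele had 2.95, 8.71, 8.26, 10.2 and 21.1 CPM in the 40 mJ/cm2 skins, against 5.14, 4.39, 9.13, 4.61 and 3.84 CPM in sham skins. The highest value of both selectins came from replicate 5, which also had the highest Icam1 level (97.1 CPM, against 24.6 to 46.9 CPM in the other 40 mJ/cm2 skins and 28.3 to 42.1 CPM in sham skins). The lowest of both came from replicate 1. The log2 fold changes were 0.86 ± 0.35 for Selp, 0.86 ± 0.39 for Sele and 0.50 ± 0.28 for Icam1, with edgeR adjusted p of 0.193, 0.259 and 0.405. By means on the log2 scale the selectins differed by 0.04 (Selp) and 0.02 (Sele) among the R1_001 libraries (3 against 3). Among the R1 libraries (2 against 2) they differed by 1.51 and 1.77. Replicate 1 is an R1_001 library and replicate 5 an R1 library, so title ending and single skins cannot be told apart here. For Selp 2 of the 3 irradiated R1_001 skins lay above every sham skin of that ending. Icam1 differed by 0.25 among the R1_001 libraries and by 0.50 among the R1 libraries. With the muscle marker level as covariate 2 members passed at 24 h, Icam1 at 0.93 (adjusted p = 0.0147) and Angpt2 at -0.56 (adjusted p = 0.0341), where 4749 genes were called in place of 545. Summed muscle RNA was 12990 to 39920 CPM in the 40 mJ/cm2 skins, against 33140 to 52370 CPM in sham skins. Without 40 mJ/cm2 replicate 1 Selp was at 1.12 and passed (adjusted p = 0.0492), and without replicate 5 it was at 0.40, Sele at 0.48 and Icam1 at 0.08.

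At 48 h after 40 mJ/cm2, Selp was the member that rose. It had 10.5, 6.75, 19.0, 14.6 and 16.7 CPM in the 40 mJ/cm2 skins, against 6.35, 5.0, 8.22, 6.78 and 6.04 CPM in sham skins. Of the irradiated skins 4 of 5 lay above every sham skin, and replicate 2 lay among them. The means were 13.5 ± 4.91 and 6.48 ± 1.17 CPM (SD, n = 5 each), a log2 fold change of 1.05 ± 0.29 (95% interval 0.45 to 1.65, edgeR adjusted p = 0.0257). That made 1 of 9 members higher and 0 of 9 lower, in a comparison that called 3.97% of genes higher and 3.76% lower. The difference was 0.57 on the log2 scale among the R1_001 libraries (2 against 2) and 1.24 among the R1 libraries (3 against 3). The call is a narrow one: it was lost in 6 of the 10 fits without 1 library (sham replicate 1, 2, 4 or 5, or 40 mJ/cm2 replicate 3 or 5), with log2 fold changes of 0.91 to 1.06 in those 6 and adjusted p up to 0.0898. All 6 other alternatives kept it, with adjusted p of 0.00797 (DESeq2) to 0.049 (muscle covariate).

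The other adhesion genes had higher means at 48 h and missed the threshold. Sele had 7.31, 3.21, 7.87, 6.37 and 11.3 CPM in the 40 mJ/cm2 skins, against 2.12, 2.84, 4.04, 3.45 and 5.06 CPM in sham skins. Its log2 fold change was 1.01 ± 0.36 (edgeR adjusted p = 0.0963), with 4 of 5 irradiated skins above every sham skin. Without replicate 2, the 1 that was not, Sele was at 1.22 and passed (adjusted p = 0.044). Icam1 stood at 56.3, 43.8, 55.9, 53.7 and 54.9 CPM in the 40 mJ/cm2 skins, against 48.4, 34.8, 38.3, 45.1 and 43.5 CPM in sham skins. The Icam1 difference was smaller than at 6 h, at 0.33 ± 0.16 (edgeR adjusted p = 0.249), and Vcam1 differed by 0.40 ± 0.18 (adjusted p = 0.205). Kdr, the main signalling receptor for Vegfa, was the only member with a 48 h interval wholly below 0, with a log2 fold change of -0.41 ± 0.18 (95% interval -0.78 to -0.04, edgeR adjusted p = 0.182). It had 37.2, 35.6, 39.5, 36.9 and 39.8 CPM in the 40 mJ/cm2 skins, against 35.7, 48.6, 52.8, 52.6 and 60.3 CPM in sham skins, of which 4 of 5 lay above every irradiated skin.

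Muscle and leukocyte genes moved beside these 48 h values. Of 15 skeletal muscle genes 8 fell and 0 rose, and their summed level was 17710 to 31130 CPM in the 40 mJ/cm2 skins, against 38800 to 63670 CPM in sham skins. Of 12 neutrophil genes tested 9 rose, with Lcn2 up by 4.29 ± 0.46 and the chemokine receptor Cxcr2 by 4.87 ± 0.66 on the log2 scale. The summed level of the neutrophil list in the 40 mJ/cm2 skins was 134, 97.5, 451, 463 and 377 CPM for replicates 1 to 5, against 117 to 183 CPM in sham skins. Lcn2, Csf3r and Cxcr2 averaged 2.30, 4.93 and 0.38 CPM in sham skins, so other genes of the list made most of the sham sum. The 3 skins with the highest sums were the 3 with the highest Selp level. They were also the 3 R1 libraries of the group, so title ending and neutrophil sum cannot be told apart there. Of the genes that define neutrophils, the surface antigen Ly6g and the granule genes Mpo, Elane and Ngp were at or near 0 in most libraries of the series and were not tested. Of 12 monocyte and macrophage genes 6 rose and 0 fell, among them Fcgr1 by 1.82 ± 0.32. The part of the leukocytes in the Selp difference was not tested. With the muscle marker level as covariate Selp was at 1.07 (adjusted p = 0.049), and Icam1 was at 0.79 and passed (adjusted p = 0.00158), where 4256 genes were called in place of 1443. The same covariate also raised the values of general vessel genes at 48 h, with Pecam1 at 0.56 against 0.14 without it, Cdh5 at 0.55 against -0.07 and Vegfa at 0.41 against -0.22, none of which passed.

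**Figure D2:**
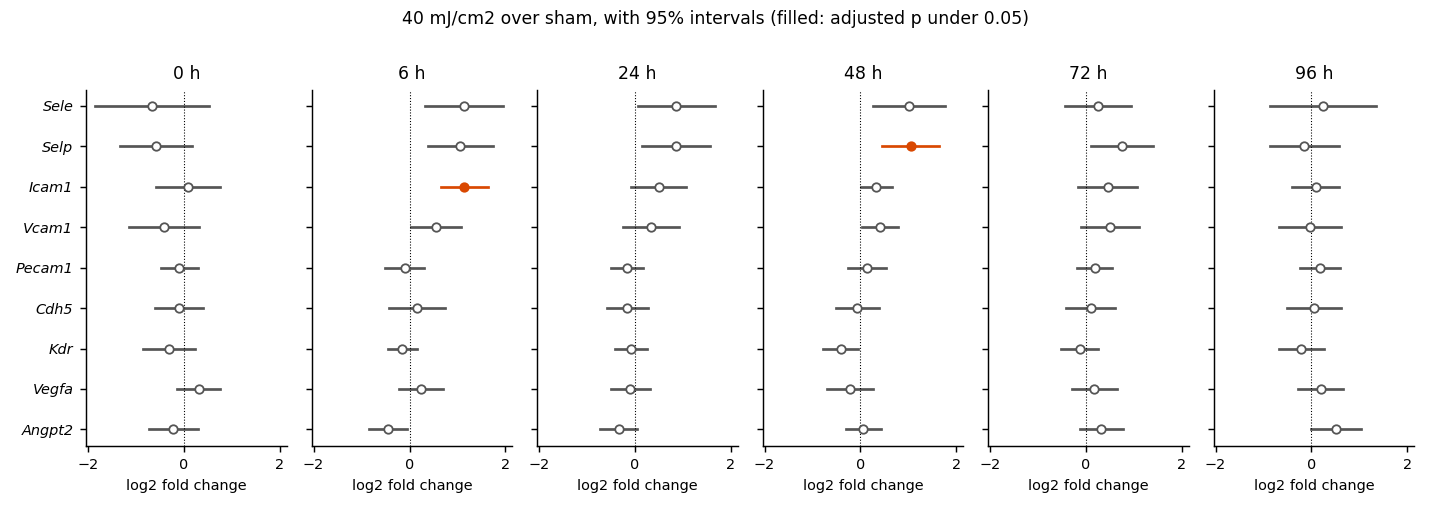
Log2 fold change of each gene (rows) in 40 mJ/cm2 skin over sham skin of the same time, 1 panel per time; lines are 95% intervals and filled points passed an adjusted p of 0.05. Only Icam1 at 6 h (1.14) and Selp at 48 h (1.05) are filled, while Pecam1 and Cdh5 lie between -0.16 and 0.18 in all 6 panels.

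At 72 h none of the 9 passed, against 1.04% of genes called higher and 0.22% lower. Selp had 15.2, 8.84, 6.86, 28.3 and 6.90 CPM in the 40 mJ/cm2 skins, against 7.16, 7.83, 9.10, 7.29 and 8.53 CPM in sham skins. The high values came from replicates 4 and 1, which were also the skins with the highest sums of the neutrophil list. Their sums were 1123 and 698 CPM, against 87.4 to 148 CPM in the other 3 irradiated skins and 116 to 161 CPM in sham skins. Lcn2, S100a8, S100a9 and Fpr2 averaged 2.08, 0.89, 1.34 and 0.15 CPM in sham skins, so other genes of the list made most of the sham sum. The log2 fold change of Selp was 0.75 ± 0.31 (edgeR adjusted p = 0.335), and that of Sele was 0.26 ± 0.33 (adjusted p = 0.938). At 96 h 0.118% of genes were called higher and 0% lower, and no member was among them. Angpt2 had 10.9, 10.5, 6.75 and 10.3 CPM in the 40 mJ/cm2 skins, against 8.79, 4.89, 7.54, 6.21 and 6.08 CPM in sham skins. With 3 of 4 irradiated skins above every sham skin its log2 fold change was 0.51 ± 0.25 (edgeR adjusted p = 1), opposite in sign to its 6 h value. Directly after exposure (0 h) edgeR called 0 genes and DESeq2 57, none of them a member, and the selectins had log2 fold changes of -0.67 ± 0.58 (Sele) and -0.59 ± 0.36 (Selp), with intervals that span 0.

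Pecam1 and Cdh5 did not pass in any of the 6 comparisons of 40 mJ/cm2 with sham. The log2 fold changes of Pecam1 lay between -0.16 and 0.18 and those of Cdh5 between -0.16 and 0.16. Over the 6 times the 95% intervals reached no lower than -0.51 and no higher than 0.60 for Pecam1, and no lower than -0.60 and no higher than 0.73 for Cdh5. With the muscle marker level as covariate Pecam1 was at 0.56 and Cdh5 at 0.55 at 48 h (adjusted p = 0.0651 and 0.0682), and at 0.40 and 0.51 at 72 h (0.0771 and 0.0683). At 48 h Pecam1 had 82.7, 91.9, 118, 98.8 and 90.2 CPM in the 40 mJ/cm2 skins, against 81.0, 84.5, 85.7, 95.9 and 90.0 CPM in sham skins. Vegfa, which is made mainly outside the endothelium, lay between -0.22 and 0.30 over the 6 times, with overlapping groups at each.

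**Figure D3:**
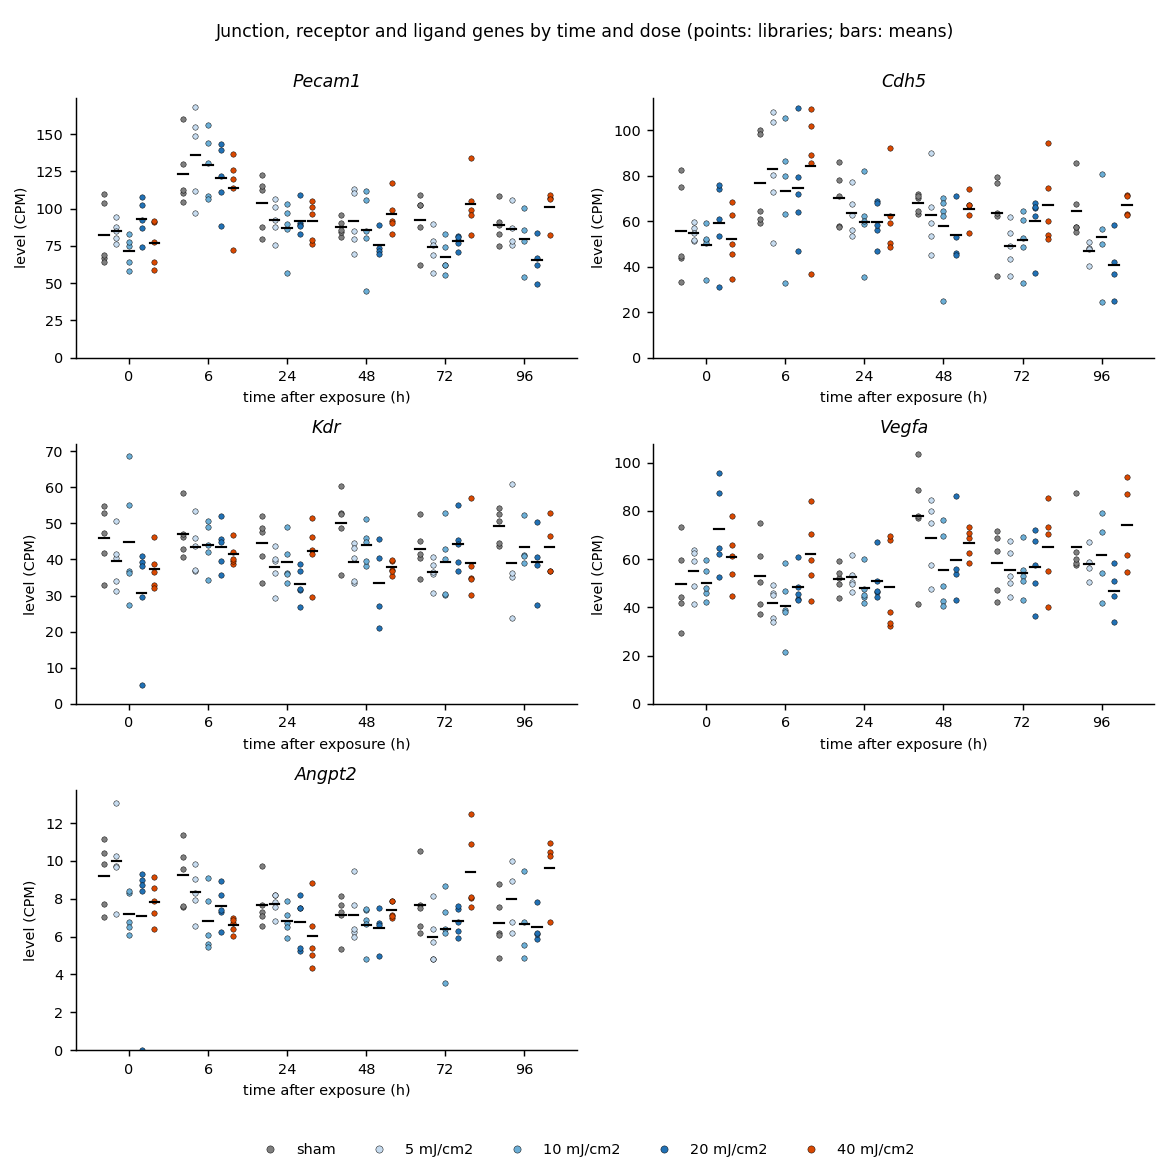
Level in CPM (vertical axis) of the junction genes Pecam1 and Cdh5, the receptor Kdr and the ligands Vegfa and Angpt2 by time after exposure (horizontal axis, h), from sham to 40 mJ/cm2 at each time; points are libraries and bars are group means. Pecam1 and Cdh5 are highest at 6 h at every dose, sham included (123 and 76.6 CPM in sham skins), and the 40 mJ/cm2 and sham skins of both overlap at each time.

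Set against Pecam1 and Cdh5 of the same library, the adhesion genes differed by similar amounts. Each library's log2 CPM of a gene was taken minus the mean log2 CPM of Pecam1 and Cdh5, as a description with no test. At 6 h Icam1 averaged -0.38 ± 0.21 in the 40 mJ/cm2 skins and -1.52 ± 0.35 in sham skins (SD, n = 5 each), and on this scale the groups did not overlap. Selp averaged -2.43 ± 0.43 in the 40 mJ/cm2 skins and -3.41 ± 0.45 in sham skins at 6 h, and -2.62 ± 0.48 and -3.56 ± 0.22 at 48 h. Sele averaged -3.53 ± 0.60 in the 40 mJ/cm2 skins and -4.46 ± 0.44 in sham skins at 48 h. At 96 h Icam1 averaged -1.02 ± 0.16 in the 40 mJ/cm2 skins (n = 4) and -0.99 ± 0.22 in sham skins (n = 5).

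**Figure D4:**
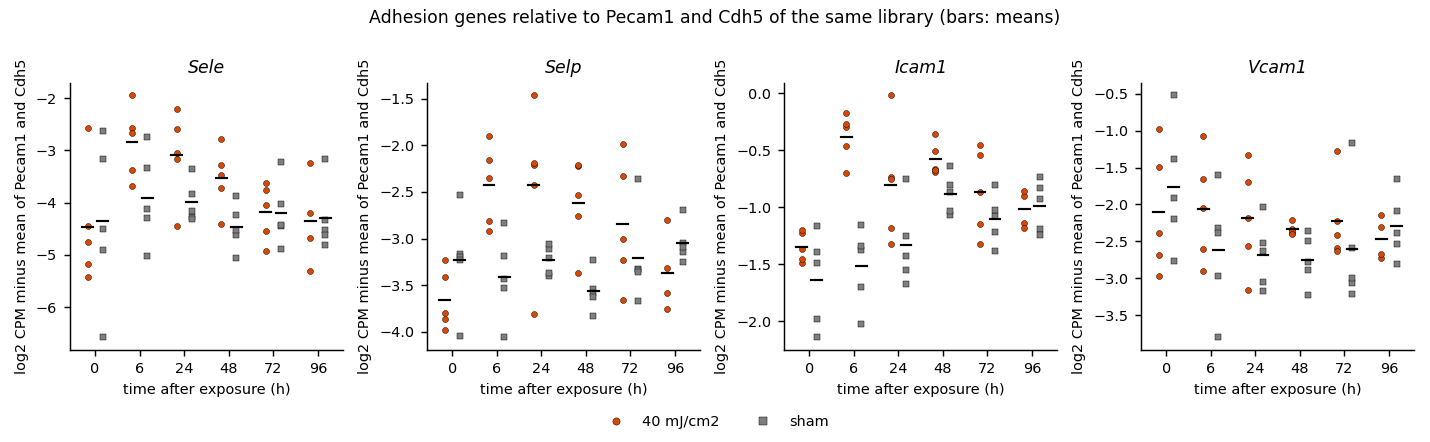
Log2 CPM of each adhesion gene minus the mean log2 CPM of Pecam1 and Cdh5 in the same library (vertical axis), by time after exposure (horizontal axis, h), for 40 mJ/cm2 skins (circles, left) and sham skins (squares, right); bars are means. Icam1 at 6 h averages -0.38 in the 40 mJ/cm2 skins and -1.52 in sham skins, with no overlap, and the groups lie together at 96 h.

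Below 40 mJ/cm2 no member passed at any time. The 18 comparisons of 5, 10 and 20 mJ/cm2 with sham called few genes of any kind with edgeR: 0.434% at 20 mJ/cm2 at 6 h, 0.075% at 24 h, 0.482% at 48 h, and 0% in the other 15. At 6 h Icam1 nevertheless stepped up with dose, at 34.1 ± 9.95 CPM in sham skins, 38.6 ± 5.17 at 5, 41.1 ± 8.62 at 10, 46.8 ± 15.7 at 20 and 73.8 ± 17.4 CPM at 40 mJ/cm2 (SD, n = 5 each). Among the irradiated groups alone it rose by 0.30 ± 0.07 on the log2 scale per doubling of dose (95% interval 0.15 to 0.45, edgeR adjusted p = 0.035). It was the only one of the 9 to do so at 6 h, where 1.42% of genes had a called slope. The slope was lost in 9 of the 20 fits without 1 library, at 0.27 to 0.30 per doubling and edgeR adjusted p up to 0.157. Among them were 4 of the 5 fits without a 40 mJ/cm2 library. It was also lost without the filter on low counts (0.30, edgeR adjusted p = 0.0565). No member had a called slope at 0, 24, 48, 72 or 96 h, where 0%, 0.953%, 3.84%, 0.60% and 0.0428% of genes did. Slopes of members at an unadjusted p under 0.05 numbered 0 at 0 h, 4 at 6 h, 2 at 24 h, 4 at 48 h, 4 at 72 h and 0 at 96 h. The shares over all genes were 1.94%, 11.9%, 10.4%, 16.4%, 6.92% and 4.07%. All 9 slopes were above 0 at 72 h, as were 51.3% of all genes. The 20 mJ/cm2 comparison of 48 h held the lowest Kdr estimate, at -0.59 ± 0.19 (adjusted p = 0.104, n = 4 irradiated and 5 sham skins). There it passed with DESeq2 (adjusted p = 0.0385), with the muscle covariate (0.0389) and without 20 mJ/cm2 replicate 1 (-0.80, 0.0167). At 96 h the 20 mJ/cm2 skins were low in Selp, at 2.80, 4.76, 6.41 and 4.70 CPM, against 9.94, 10.6, 7.13, 9.24 and 8.35 CPM in sham skins. Those groups did not overlap, yet Selp was at -0.91 ± 0.36 with an edgeR adjusted p of 0.938, and Pecam1 (-0.45 ± 0.20) and Cdh5 (-0.68 ± 0.28) were low in the same skins. The share of all genes without overlap was not counted there either.

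These counts of 0 hold for edgeR. In the 18 comparisons below 40 mJ/cm2, DESeq2 called Kdr at 20 mJ/cm2 at 48 h and no other member, while over all genes it called 0 to 6 in a comparison at 5, 0 to 33 at 10 and 1 to 1136 at 20 mJ/cm2. At an unadjusted p under 0.05 edgeR had 0 of 54 member-by-time pairs at 5 mJ/cm2, 3 of 54 at 10 mJ/cm2 and 6 of 54 at 20 mJ/cm2, where 1.09% to 21.3% of all genes in a comparison did. At 40 mJ/cm2 the members at an unadjusted p under 0.05 numbered 0 at 0 h, 5 at 6 h, 2 at 24 h, 5 at 48 h, 1 at 72 h and 0 at 96 h, where 4.45%, 17.4%, 16.4%, 19.9%, 11% and 4.74% of all genes did. DESeq2 called no member at 0, 24, 72 or 96 h.

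The size of the 40 mJ/cm2 effect was compared between times directly. Icam1 had an effect smaller by 0.78 ± 0.36 on the log2 scale at 48 h than at 6 h, which did not pass (edgeR adjusted p = 0.39; 0.985% of genes passed). Selp had an effect smaller by 1.23 ± 0.48 at 96 h than at 48 h, which did not pass either (edgeR adjusted p = 0.357; 0.0696% of genes passed). Between 48 and 24 h edgeR called 0% of genes, DESeq2 called 5 genes and edgeR with the muscle covariate called 1. The difference in which member passed at which time is thus not itself shown. In sham skins alone 4.29% of genes changed over the 6 times and none of the 9 did. Pecam1 came nearest, with 123 CPM at 6 h and 82.4 to 104 CPM at the other times (edgeR adjusted p = 0.302). It passed with the muscle marker level as covariate (adjusted p = 0.0103). At an unadjusted p under 0.05 the members numbered 2 between 48 and 6 h, 0 between 48 and 24 h, 1 between 96 and 48 h and 0 over time in sham skins, where 10.7%, 2.48%, 9.19% and 16.8% of all genes did. DESeq2 called no member in the 3 comparisons of effects or among sham skins.

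Few genes of the wider endothelial programme passed. Of 28 other endothelial markers 0 passed with edgeR at 6, 24, 72 and 96 h, with median log2 fold changes of 0.08, -0.13, -0.05 and 0.01 against 0.04, 0.05, 0.03 and -0.02 over all genes. At an unadjusted p under 0.05 there were 1, 1, 1 and 0 of the 28, and DESeq2 called 1 higher at 6 h and none at 24, 72 or 96 h. At 48 h 2 fell: Tek, the angiopoietin receptor, by 0.57 ± 0.17 (36.5 ± 3.23 CPM at 40 mJ/cm2 and 54.1 ± 1.17 CPM in sham skins, adjusted p = 0.0455), and Cd34, a sialomucin of endothelium and also of hair follicle stem cells and fibroblasts, by 0.61 ± 0.18 (adjusted p = 0.0351). Summed, the 28 markers stood at 1054 to 1430 CPM in the 40 mJ/cm2 skins and 1315 to 1638 CPM in sham skins at 48 h. Cd34 alone held a large part of that sum, at 431 ± 65.6 CPM in the 40 mJ/cm2 skins and 657 ± 58.9 CPM in sham skins. The median log2 fold change of the list was -0.09 at 48 h, against -0.01 over all genes. Of 10 pericyte and vascular smooth muscle markers 0 passed with edgeR at any time, with 0 or 1 at an unadjusted p under 0.05, and DESeq2 called 1 lower at 48 h and none at the other times. Of 7 lymphatic markers Pdpn rose at 6, 24, 48 and 72 h, by 1.19 ± 0.28, 1.61 ± 0.23, 1.69 ± 0.28 and 1.39 ± 0.34, and Reln fell at 6 h by 0.71 ± 0.19 and at 24 h by 0.91 ± 0.18. Podoplanin (Pdpn) is also made by keratinocytes and fibroblasts, and the median of the list was below 0 at each of these times.

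**Figure D5:**
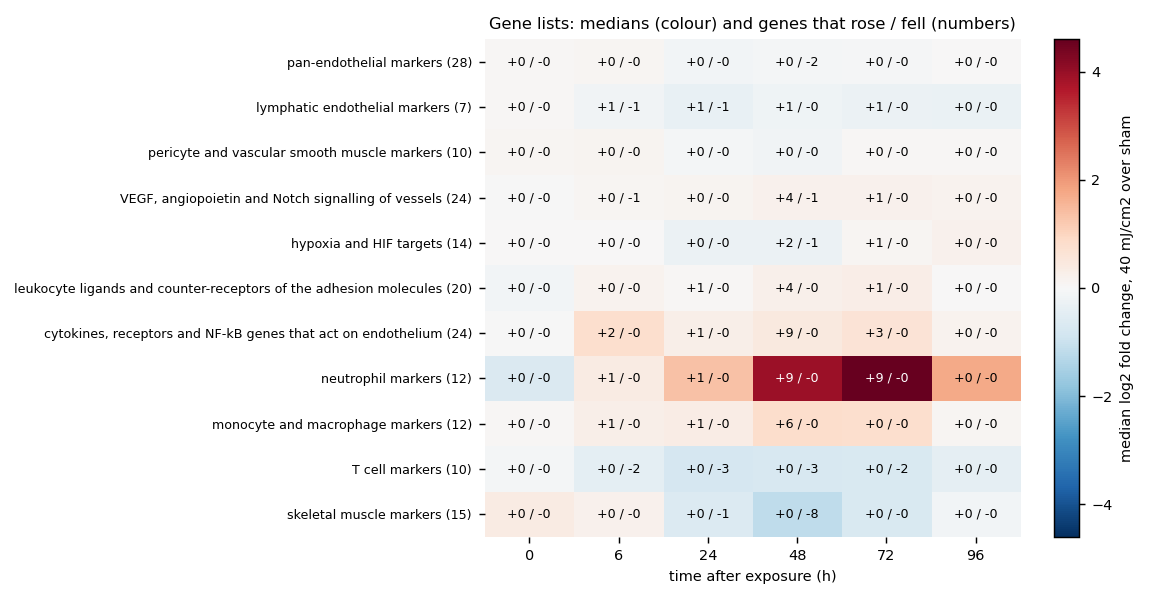
Median log2 fold change of 40 mJ/cm2 over sham skin for 11 gene lists (rows, number of genes tested in brackets) by time after exposure (columns, h); the numbers give how many genes of the list rose and fell. The pan-endothelial list stays near 0, with 2 genes lower at 48 h, the lymphatic list has medians of -0.17 to -0.35 from 6 h on, neutrophil markers have 9 of 12 genes raised at 48 and at 72 h, and 8 of 15 muscle genes are lower at 48 h.

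Some cytokine genes and leukocyte partners of the adhesion molecules also passed at 40 mJ/cm2. Among 24 tested cytokines, receptors and NF-kB genes, 2 rose at 6 h: Il6, an inflammatory cytokine, by 2.74 ± 0.80 (adjusted p = 0.0468) and Ackr1, a chemokine receptor of venular endothelium, by 0.83 ± 0.24 (53.1 ± 12.1 CPM at 40 mJ/cm2 and 30.8 ± 10.5 CPM in sham skins, adjusted p = 0.0461). The median of that list was 0.76 at 6 h, against 0.04 over all genes. At 48 h 9 of the 24 rose, with Il6 up by 4.63 ± 0.68, Cxcl1 by 3.88 ± 0.66, Ccl2 by 2.21 ± 0.39 and Il33 by 1.86 ± 0.27. Of 20 leukocyte partners of the adhesion molecules, 0 passed at 6 h (3 at an unadjusted p under 0.05; DESeq2 called 1 higher and 1 lower), 1 rose at 24 h (Cd44, a ligand of Sele, by 1.07 ± 0.19) and 4 rose at 48 h. Among them were the integrin chains Itgam, which rose by 1.30 ± 0.20, and Itgb2, which rose by 1.04 ± 0.23 and pairs with Itgam to bind Icam1, and Cd44, which rose by 0.95 ± 0.25.

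Around Vegfa and Angpt2, other ligands passed where these did not. Of 24 genes of VEGF, angiopoietin and Notch signalling, 1 fell at 6 h (Sema3a, a guidance ligand that competes with Vegfa at neuropilins, by 1.62 ± 0.34) while at 48 h Tek was again the 1 that fell and 4 rose. They were the angiogenesis inhibitors Thbs1 (1.75 ± 0.41) and Thbs2 (1.26 ± 0.23), Vegfd (0.82 ± 0.17), which acts through the VEGF receptors, and Apln (1.62 ± 0.37), the apelin of growing vessels. Apln was also raised at 72 h, by 1.98 ± 0.41. Of 14 hypoxia targets, a group to which Vegfa belongs, 2 rose at 48 h (Slc2a1 by 0.96 ± 0.27 and Car9 by 1.31 ± 0.34) and 1 fell (Bnip3 by 0.81 ± 0.25).

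Over the 30 group means of log2 CPM, Pecam1 and Cdh5 were each other's closest gene (Pearson r = 0.89), and the selectins resembled one another (r = 0.80). Selp was most like Lcp2 (r = 0.92), a signalling adaptor of blood cells, while Icam1 was most like Arid5a (0.92), Tmem173 (0.89) and Smad7 (0.89). Sele was most like Stat2 (0.84), and Vcam1 like Asns (0.84). Kdr, Vegfa and Angpt2 had weaker best matches, in Armc8 (0.78), Wdr91 (0.76) and Parm1 (0.80). These are likenesses over 30 groups that share handling, time and libraries, and carry no test. The group means include the 2 libraries under 1000000 counts, where Selp had a count of 0, and no likeness without them is given.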

How the data were processed

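Polyadenylated RNA of dorsal skin was sequenced from 145 mice, 1 library each, as 75-base single reads from a strand-marking kit with an input of 300 ng (per the labels). Deposited was 1 table that holds the authors' expected counts for each Ensembl gene, and 12.6% of its values are not whole numbers. Per the submitters' processing notes, bcl2fastq 2.20.422, fastp 0.23.0, STAR 2.7.10a and DESeq2 1.36.1 were used with build GRCm39. The sources used here do not name the counting program, its strand setting or its annotation. Reads shared with overlapping or antisense genes can therefore not be told apart. Identifiers were given symbols through GENCODE vM21, on another build (GRCm38), which named 52083 of 55416; spliced lengths come from it too.

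The expected counts were rounded and tested across all genes with edgeR 4.0.16 (R 4.3.3; TMM, quasi-likelihood F tests, two-sided) after filterByExpr over the 30 groups, which kept 18677 genes. Each time was fitted with its 5 dose groups and the title ending as covariate; the slope used log2 dose among irradiated groups, and changes of the 40 mJ/cm2 effect between times used all libraries. Benjamini-Hochberg adjustment ran over all genes of a comparison, and calls are adjusted p under 0.05. SE was derived as the absolute log2 fold change divided by the square root of the F statistic. The 95% intervals were built from that SE with a t quantile. Levels are given as CPM with TMM-scaled library totals, and log2 CPM used a prior count of 2. The test was checked on simulated data. P-values measure the spread between these animals; intervals of counts cover counting error only. No pair of libraries in a group matched within sampling noise (over 280 pairs the chi-square divided by its degrees of freedom was at least 7.66).

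The 9 members and the 16 marker and pathway lists were chosen with earlier results of these data known. Beside the members, the text names the 3 genes most like each member in group means (mean log2 CPM of at least 1, without predicted, immunoglobulin, T cell receptor and mitochondrial genes) and up to 4 called genes per list, direction and time at 40 mJ/cm2. A few of the genes this rule selects are not reported here. Alternatives were RLE scaling, DESeq2 1.42.0, no filter, no covariate, 1 fit of all groups, no library under 1000000 counts, the muscle marker level as covariate, and each replicate left out in turn.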

Additional observations from a re-analysis of the deposited data

Results flagged for a closer look

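In 21 of the 270 sets of 4 or 5 libraries that a member and a group make, 1 library stood apart from the rest by Dixon's test at the 95% level, where chance alone flags about 1 set in 20. All values are CPM, with the range of the other libraries of the group after each.

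Among the selectins, Sele was high in 5 mJ/cm2 replicate 1 at 48 h (7.68, against 1.90 to 3.32), in 20 mJ/cm2 replicate 3 at 96 h (7.27, against 1.87 to 2.29) and in sham replicate 3 at 24 h (9.13, against 3.84 to 5.14). Selp was high in the same 5 mJ/cm2 library of 48 h (14.8, against 4.93 to 7.12), in 40 mJ/cm2 replicate 1 at 96 h (11.7, against 6.31 to 7.20) and in sham replicate 5 at 0 h (15.5, against 4.89 to 5.87). A single skin high in both selectins thus occurred at 5 mJ/cm2 too.

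Icam1 was low in 40 mJ/cm2 replicate 2 at 48 h (43.8, against 53.7 to 56.3), which was also the lowest of its group in Sele and Selp. It was high in 40 mJ/cm2 replicate 4 at 96 h (48.0, against 37.3 to 38.7), and low in 20 mJ/cm2 replicate 3 at 72 h (22.0, against 39.2 to 44.4) and sham replicate 2 at 96 h (29.0, against 38.5 to 41.9). Those last 2 libraries stood out the other way for Vcam1, which was high in 20 mJ/cm2 replicate 3 at 72 h (25.1, against 10.8 to 13.9) and sham replicate 2 at 96 h (21.8, against 12.3 to 15.0). Vcam1 was also high in 20 mJ/cm2 replicate 4 at 6 h (28.9, against 15.4 to 16.7).

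Of the vessel genes, Pecam1 (82.4, against 106.7 to 109.1) and Angpt2 (6.75, against 10.3 to 10.9) were low in 40 mJ/cm2 replicate 3 at 96 h. Cdh5 was low in 20 mJ/cm2 replicate 3 at 72 h (37.4, against 62.4 to 68.1) and in 10 mJ/cm2 replicate 3 at 48 h (24.7, against 62.4 to 70.3). Vegfa was high in sham replicate 1 at 96 h (87.2, against 57.6 to 62.7). The remaining 3 come from the library of 204483 counts, 20 mJ/cm2 replicate 5 at 0 h: Icam1 (5.15, against 28.5 to 32.6), Vcam1 (listed at 0, against 15.4 to 21.2) and Angpt2 (listed at 0, against 8.43 to 9.29).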

How the results depend on the processing

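The member values at 40 mJ/cm2 and the called slope, 55 in all, kept their call and direction in 341 of 349 alternatives with all replicates and in 532 of 551 fits without 1 library; the sign of a value called in neither fit was not compared. None was called in the opposite direction. Of the counts of members called, 2 in place of 1 passed at 40 mJ/cm2 at 6 h with DESeq2, in 1 fit of all groups, with the muscle marker level as covariate and without libraries under 1000000 counts (Selp beside Icam1 in each). With the muscle covariate 2 in place of 0 passed at 24 h, 2 in place of 1 at 48 h and, among sham skins over time, 1 in place of 0. At 20 mJ/cm2 1 member in place of 0 (Kdr at 48 h) passed with DESeq2 and with the muscle covariate. For the slope 2 in place of 1 passed in 1 fit of all groups, with Angpt2 at 72 h (0.20 per doubling, adjusted p = 0.0404) added, and 0 without the filter on low counts. The cause was not tested.

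Leaving out 1 library gave 1 to 3 members at 6 h, 0 to 1 at 24 h and 0 to 2 at 48 h at 40 mJ/cm2, 0 to 1 over the 6 times at 20 mJ/cm2, and 0 to 2 called slopes, of which the 2 add Sele at 48 h without 5 mJ/cm2 replicate 1 (0.48 per doubling, adjusted p = 0.0123). Every other count was 0 throughout. Over all genes DESeq2 called 1671 at 6 h, 1286 at 24 h, 480 at 72 h and 94 at 96 h at 40 mJ/cm2, against 914, 545, 236 and 22 with edgeR, and the muscle covariate gave 1741, 4749, 4256 (48 h, against 1443) and 2435 (72 h). At 0 h, where edgeR called 0 genes, DESeq2 called 57, 1 fit of all groups 74 and the fit without a filter 84. Comparisons of effects between times were not refitted without single libraries. No paired analysis was possible because replicate numbers only name animals in accession order and each animal gave 1 library. Sele (median count 47), Angpt2 (80) and Selp (92) rest on the fewest counts, which limits the precision of their values.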

Other observations

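Markers of other skin cells also changed at 40 mJ/cm2. Of 10 T cell markers 2 fell at 6 h, 3 at 24 h, 3 at 48 h and 2 at 72 h, and none rose at these times. At 48 h the T cell receptor chain Cd3g was at 3.87 ± 1.38 CPM in the 40 mJ/cm2 skins and 10.5 ± 2.05 CPM in sham skins (SD, n = 5 each), and Cd3e, another chain of the receptor complex, fell by 1.23 ± 0.32 on the log2 scale. Of 10 keratinocyte markers 2 rose at 48 h: Krt14, a keratin of the basal layer, at 3272 ± 731 CPM in the 40 mJ/cm2 skins and 1004 ± 205 CPM in sham skins, and the desmosome cadherin Dsg3, by 1.02 ± 0.28 on the log2 scale. At 96 h Krt1, a keratin of the suprabasal layers, rose by 2.31 ± 0.42 (edgeR adjusted p = 0.0305).

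Of 8 fibroblast markers 2 fell at 48 h, the collagen genes Col1a2 by 0.94 ± 0.23 and Col1a1 by 0.79 ± 0.22. Of 8 mast cell markers Hdc alone rose, by 2.39 ± 0.40 at 48 h and 3.98 ± 0.81 at 72 h. Hdc makes histamine, and neutrophils and macrophages also express it. Of 8 adipocyte and 11 hair shaft markers 0 passed with edgeR at any time, although all 8 adipocyte markers and 7 hair shaft markers were at an unadjusted p under 0.05 at 96 h, and DESeq2 called 5 hair shaft markers higher at 24 h. Those markers had median log2 fold changes at 96 h of 1.83 (adipocyte) and -3.57 (hair shaft).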
